A study of Mus musculus with 8 samples.

Results

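Immediate early genes are the genes that neurons transcribe first after a burst of electrical activity, and 38 of them were followed here in the hippocampus of mice that overexpress the microRNA miR-708-5p. They were chosen by name as known activity-induced genes. No measured value of these mice was in the rule, but earlier results of these data were known. All 38 were found among the 40659 genes of the deposited count table and among the 17252 genes that were abundant enough to be tested. PolyA RNA was sequenced from 8 hippocampal samples of male C57BL/6JRj mice, labelled as 12 to 13 weeks after birth. At 4 weeks before that, the dorsal and ventral hippocampus had been injected with a recombinant adeno-associated virus (rAAV). The 4 mice of the hp708 group received a virus with a hairpin that yields miR-708-5p, and the 4 mice of the hpCTL group received a virus with a control hairpin, so both groups carried a virus and had undergone surgery. In both viruses the neuronal promoter hSYN drives EGFP, with the hairpin at the end of the EGFP transcript, so the hairpin is expressed in neurons of a tissue that holds other cells too.

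The question was whether the activity-induced genes differed between hp708 and hpCTL hippocampi. One label is in conflict. The mouse of hp708 replicate 1, animal 1602, is hp708 by its sample label but appears as hpCTL in another record of the study, so results are also given without it. Between 22606824 and 28462428 reads were counted per library. The precursor gene Mir708 had 0 counts in each of the 8 libraries, so overexpression could not be checked here, and hippocampal identity was checked on Prox1, a marker of dentate granule neurons, at 55.5 to 121 CPM (counts scaled to the size of the library), and on Wfs1, a marker of CA1 neurons, at 88.7 to 139 CPM. Choroid plexus genes varied most among the lists of cell markers, with Ttr at 25.6 to 1872 CPM in hpCTL and at 67.7 to 4106 CPM in hp708. Over 12 lists of cell markers and stress genes, the exact permutation p of the difference in mean log2 CPM was lowest for subiculum and deep cortex, at 0.0571, with 4.20 to 4.50 in hpCTL and 3.85 to 4.46 in hp708. The 4.46 was hp708 replicate 1, and without it the hp708 mice lay at 3.85 to 4.00, apart from hpCTL. The CA1 list (6.27 to 6.30 against 6.39 to 6.62 in hpCTL, with hp708 replicate 1 at 6.56) and the list of glucocorticoid targets (4.53 to 4.59 against 4.14 to 4.52, with that mouse at 4.26) were apart in the same way. Each of these 3 lists then had an exact permutation p of 0.0571, the smallest that 3 mice against 4 allow, in a comparison added after seeing the data. In all 3, hp708 replicate 1 lay within the hpCTL range. The genes of the CA1 list did not move together. Ccn3 was at 79.6, 115 and 76.4 CPM in hp708 replicates 2 to 4, against 137 to 158 CPM in hpCTL. Wfs1, of the same list, was at 134, 88.7 and 139 CPM in those mice, against 105 to 136 CPM in hpCTL. In tissue of this kind, fewer cells of a type and less RNA per cell cannot be told apart.

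When a neuron fires, calcium that enters through NMDA receptors and voltage-gated channels activates kinases, which in turn switch on factors that already sit on the promoters of these genes, CREB at CRE elements and SRF at CArG boxes. The first genes to respond need no new protein. Many encode transcription factors such as Fos, Egr1 and Npas4, which start a later wave of genes. Others encode proteins that act directly at the synapse, such as Arc and Homer1, or that shut signalling down again, such as the Dusp phosphatases. Their transcripts are short-lived, which makes their level in a tissue a record of recent activity.

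MicroRNAs recognise targets through the seed, bases 2 to 8, which is in capitals in the mature sequence of miR-708-5p taken from RefSeq.
miR-708-5p: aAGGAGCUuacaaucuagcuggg

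Of the 38 genes, 9 (23.7%) had at least 1 match of 7 or more bases to this seed in the longest 3'UTR annotated in GRCm39, against 26.5% of the 14808 tested genes with a 3'UTR. The genes were Arc, Btg2, Dusp5, Egr1, Egr4, Maff, Nr4a3, Sik1 and Trib1, and Sik1 and Trib1 had 3 sites each. One site of each gene but Egr1 is shown because these are the members that miR-708-5p could pair with. Capitals mark the matching bases, which in Arc are 6 bases of the seed and an A opposite base 1 of the microRNA.
Arc, chr15:74541372-74541396, minus strand: gagaccccaggccttgGCTCCTAgg
Btg2, chr1:134003839-134003863, minus strand: cttgggcacagctttAGCTCCTtgg
Dusp5, chr19:53529509-53529533, plus strand: ttggcttcatgggacAGCTCCTtca
Egr4, chr6:85486169-85486193, minus strand: ctctctcctgcccccAGCTCCTctt
Maff, chr15:79243017-79243041, plus strand: caccagccagagtccAGCTCCTctt
Nr4a3, chr4:48084769-48084793, plus strand: tattgcaagaccaccAGCTCCTgga
Sik1, chr17:32062340-32062364, minus strand: cccaggggccagcccAGCTCCTcgg
Trib1, chr15:59526400-59526424, plus strand: ttctgagagactcacAGCTCCTcag

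The promoters were searched on both strands in the 250 bases before the canonical transcript start in GRCm39. The full CRE, TGACGTCA, was found in 7 of the 38 genes (Arl4d, Btg2, Dusp1, Ier2, Maff, Sik1 and Trib1; 18.4%) and in 1.96% of the 14977 tested genes with such a window. Its shorter form TGACG, which every full CRE contains, was found in 23 genes (60.5%, against 21.9%), and a CArG box in 3 (Dusp5, Egr2 and Egr3; 7.89%, against 1.17%). The binding site of the EGR factors, GCGNGGGCG, was found in 8 (21.1%, against 5.98%), TATAAA in 7 (18.4%, against 7.44%) and the AP-1 site TGANTCA in Homer1 alone (2.63%, against 4.57%). These are matches of letters, not measured binding, and elements outside the window were not searched. The windows of Fos and Ier2, which followed the same pattern across mice described further on, are shown. Capitals mark the full CRE and TGACG on either strand.
Fos, chr12:85520408-85520657, plus strand: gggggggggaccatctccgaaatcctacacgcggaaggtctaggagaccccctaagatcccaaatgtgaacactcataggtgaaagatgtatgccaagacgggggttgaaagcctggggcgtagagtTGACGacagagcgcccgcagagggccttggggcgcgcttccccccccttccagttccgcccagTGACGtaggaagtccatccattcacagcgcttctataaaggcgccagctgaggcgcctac
Ier2, chr8:85389484-85389733, minus strand: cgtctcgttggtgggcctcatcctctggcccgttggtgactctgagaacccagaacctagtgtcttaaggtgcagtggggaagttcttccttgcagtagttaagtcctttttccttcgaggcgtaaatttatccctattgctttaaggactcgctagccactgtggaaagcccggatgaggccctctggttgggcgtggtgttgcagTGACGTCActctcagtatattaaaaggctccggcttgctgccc

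The window of Ier2 held a full CRE that starts 43 bases before the transcript, and that of Fos held TGACG at 123 and 60 bases.

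None of the 38 immediate early genes differed between hp708 and hpCTL at a false discovery rate (FDR) below 0.05 in the quasi-likelihood test of edgeR, fitted with 3 surrogate variables, which stand for unknown sources of variation. The lowest FDR was 0.524, and over all 17252 genes 1 gene (0.00580%) passed. With the same surrogate variables the likelihood ratio test passed 127 genes and DESeq2 96, none of them a member. At an unadjusted p below 0.05 there were 3 members, Ptgs2 and Egr3 with higher and Pim1 with lower values in hp708, beside 1328 genes (7.70%) over the whole table. Leaving out single libraries moved both the members and the whole table. There were 2 members without hpCTL replicate 3 (2.98% of all genes) or hp708 replicate 4 (8.46%), 3 without hpCTL replicate 2 (7.04%) and 5 without hpCTL replicate 4 (6.09%). There were 9 without hpCTL replicate 1 (9.67%), 10 without hp708 replicate 1 (12.2%) and 11 without hp708 replicate 2 (12.0%) or 3 (8.02%). By sign, 18 of the 38 had a log2 fold change above 0 (11 without hpCTL replicate 3 or hp708 replicate 4), against 46.8% of all genes, and the median was -0.02 against -0.01. Without surrogate variables 0 members had an unadjusted p below 0.05, against 1.81% of all genes, the lowest FDR of a member was 0.999, and 19 were above 0, against 47.1%. The CPM of the groups overlapped for each of the 38, while 1.51% of all genes had groups that did not overlap. An exact permutation test of the difference in mean log2 CPM, which can reach 0.0286 with 4 mice against 4, gave no member a p below 0.171, and 1.51% of all genes were below 0.05 in it.

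The width of the intervals depended on the surrogate variables, which the fit takes as known though they come from the same libraries. In the fit with 3 surrogate variables the 95% interval of the log2 fold change lay between -1 and 1 for 37 genes, all but Inhba, and between -0.5 and 0.5 for 25 genes. Homer1 was the most precisely measured, with a log2 fold change of 0.01 and an interval from -0.10 to 0.13. The plot of fold changes shows how intervals widened when the surrogate variables were left out, to 34 genes within 1 and 15 within 0.5.

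**Figure D1:**
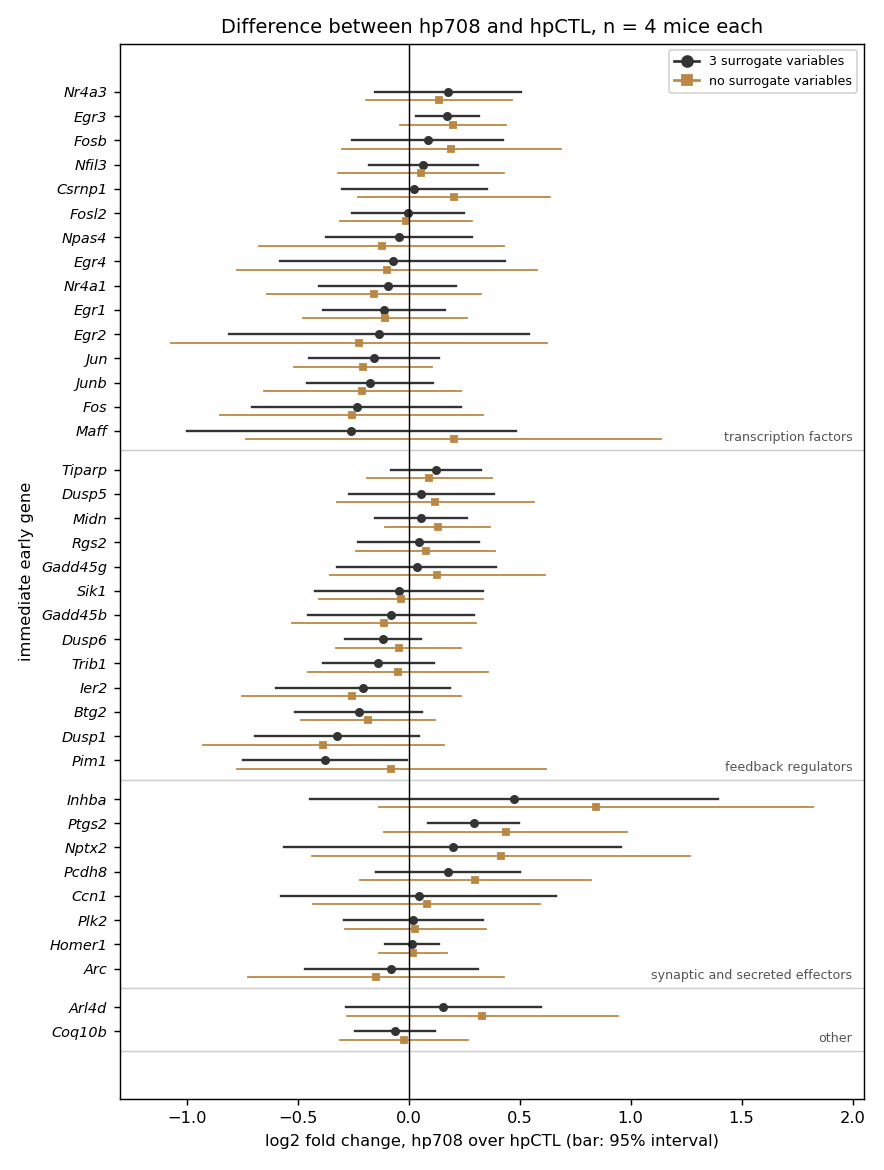
Log2 fold change of hp708 over hpCTL (horizontal axis) for the 38 immediate early genes in 4 groups by role, with 95% intervals as bars, from edgeR with 3 surrogate variables (black circles) and with none (brown squares). Most intervals cross 0, and those of Egr3, Ptgs2 and Pim1 do not with 3 surrogate variables.

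Without hp708 replicate 1, the mouse with conflicting labels, and with 3 surrogate variables, 10 members had an unadjusted p below 0.05, against 12.2% of all genes. They were Ptgs2, Egr3, Pcdh8, Inhba, Nptx2, Arl4d, Rgs2 and Dusp5 with higher values and Dusp1 and Btg2 with lower values in hp708. Again none passed an FDR of 0.05, against 56 genes (0.321%) over the whole table, and the lowest was 0.0677 for Ptgs2, from edgeR's quasi-likelihood test. In that fit 25 members were above 0, against 48.7% of all genes. Without that mouse and without surrogate variables 3 members (Ptgs2, Egr3 and Inhba) had an unadjusted p below 0.05, against 3.42%, at an FDR of 0.999 for each, and 24 members were above 0, against 48.9%. The part of the 3 marker lists that were apart without that mouse in these values was not tested.

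Of the 15 transcription factors, 5 had a log2 fold change above 0 and 10 below, and none passed an FDR of 0.05. Fos (ENSMUSG00000021250, chr12:85520658-85524047), which pairs with Jun proteins to form AP-1, was at 22.3, 21.3, 11.2 and 13.3 CPM in hpCTL replicates 1 to 4 and at 14.4, 19.96, 12.7 and 9.996 CPM in hp708 replicates 1 to 4. A pair of hpCTL mice and 1 hp708 mouse were thus high and the rest lower, and the log2 fold change was -0.23 (SE 0.20, FDR 0.830 from edgeR). Over single mice dropped, it ran from -0.44 without hp708 replicate 2 to -0.096 without hpCTL replicate 2. Its partners Junb, at 55.8 ± 15.4 and 48.3 ± 9.68 CPM (mean ± SD of hpCTL and hp708, n = 4 each), and Jun, at 120 ± 13.1 and 104 ± 19.5 CPM, had log2 fold changes of -0.17 and -0.16. Fosb was at 0.09, Fosl2 at -0.003, and both had intervals that crossed 0.

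The EGR factors are zinc finger proteins that bind GC-rich sites, and they differed in sign. Egr1 was at 166, 146, 120 and 107 CPM in hpCTL and at 103, 151, 141 and 106 CPM in hp708, and Egr2 at 7.10, 4.77, 2.75 and 2.97 CPM and at 2.86, 5.56, 4.65 and 2.02 CPM. For both, the highest mouse was hpCTL replicate 1 and the groups overlapped. The log2 fold changes of Egr1, Egr2 and Egr4 were -0.11, -0.13 and -0.07, each with an interval across 0. Egr3 (ENSMUSG00000033730, chr14:70314350-70320063) was at 99.1, 86.3, 97.7 and 86.0 CPM in hpCTL and at 91.5, 95.1, 111 and 126 CPM in hp708. The top pair of libraries was hp708 replicates 3 and 4, while the other pair of hp708 mice lay within the hpCTL range. The log2 fold change of Egr3 was 0.17 (SE 0.06, unadjusted p 0.023, FDR 0.593 from edgeR), and 0.20 without surrogate variables, where the unadjusted p was 0.093. Dropping hp708 replicate 4 gave 0.12 and dropping hp708 replicate 1 gave 0.31, the ends of the range over single mice, and the unadjusted p was not below 0.05 without hpCTL replicate 2, hpCTL replicate 3 or hp708 replicate 4.

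Npas4, a factor that responds to calcium and shapes inhibitory synapses, was at 10.7 to 19.2 CPM in hpCTL and at 8.67 to 18.7 CPM in hp708, with a log2 fold change of -0.04. The orphan nuclear receptors Nr4a1 and Nr4a3 were at -0.09 and 0.18 on the log2 scale, each with an interval across 0. Maff, a small Maf protein, was the least abundant member, with 0.421 CPM per kb of exon and 0.682 to 2.48 CPM. Its log2 fold change was -0.26 with 3 surrogate variables and 0.20 with none. Nfil3, at 0.07, and Csrnp1, at 0.03, completed the factors.

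The 13 regulators of signalling, 5 above 0 and 8 below, had a median log2 fold change of -0.08. Single mice moved this count, to 1 above 0 without hpCTL replicate 3, 2 without hp708 replicate 4 and 9 without hp708 replicate 1, where the median was 0.10. Dusp1, Dusp5 and Dusp6, phosphatases that switch MAP kinases off, differed in sign. Dusp1 was at 20.8, 21.4, 12.5 and 16.7 CPM in hpCTL and at 17.8, 16.5, 11.8 and 8.59 CPM in hp708, with a log2 fold change of -0.32 (SE 0.16, FDR 0.697 from edgeR). The lowest hp708 values lay below all hpCTL values, and the others overlapped. The fold change was -0.59 without hp708 replicate 1 and -0.20 without hp708 replicate 4. Dusp5 was at 0.06 and Dusp6 at -0.12. Pim1, a serine/threonine kinase, was at 4.68, 6.91, 11.2 and 9.31 CPM in hpCTL and at 4.53, 9.65, 6.35 and 9.87 CPM in hp708. The 2 groups had like ranges, and its log2 fold change of -0.38 (SE 0.16, unadjusted p 0.047, FDR 0.646 from edgeR) came with the surrogate variables. With none it was -0.08.

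Btg2, an antiproliferative protein, was at -0.22, and Ier2 at -0.21. Trib1 was at -0.14, Gadd45b and Gadd45g, stress sensors linked to DNA demethylation, at -0.08 and 0.04, Sik1, a kinase that restrains CREB coactivators, at -0.04, Rgs2, which speeds the switch-off of G proteins, at 0.04, Midn at 0.05 and Tiparp at 0.12. The standard errors of these 9 genes lay between 0.09 and 0.17, and none had an unadjusted p below 0.05.

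The 8 synaptic and secreted effectors had a median log2 fold change of 0.11, with 7 above 0. Without hp708 replicate 4, 4 of the 8 were above 0 and the median was -0.003. Arc (ENSMUSG00000022602, chr15:74540932-74544419), which drives removal of AMPA receptors from synapses, was at 276, 211, 116 and 162 CPM in hpCTL and at 159, 235, 169 and 128 CPM in hp708. The hpCTL mice alone spanned both the highest and the lowest value, and the log2 fold change was -0.08 (SE 0.17). On the mean of the 8 mice, Arc had the highest level per length of the 38 genes, with 52.2 CPM per kb of exon. It was followed by Plk2 at 43.3, Jun at 35.2 and Egr1 at 28.9. Plk2 was above Arc in hpCTL replicate 3 (45.6 against 33.4) and in hp708 replicate 4 (57.6 against 36.7). Ptgs2 (ENSMUSG00000032487, chr1:149975194-149983978), the inducible cyclooxygenase of prostaglandin synthesis, was at 25.6, 24.0, 31.6 and 20.2 CPM in hpCTL and at 22.4, 26.3, 37.4 and 51.3 CPM in hp708. The top pair was again hp708 replicates 3 and 4, and the other pair lay within the hpCTL range. Its log2 fold change was 0.29 (SE 0.09, unadjusted p 0.012, FDR 0.524 from edgeR) and 0.44 without surrogate variables, where the unadjusted p was 0.106. Over single mice dropped, the fold change was smallest without hp708 replicate 4, at 0.13, and largest without hp708 replicate 1, at 0.61, and the unadjusted p was not below 0.05 without hpCTL replicate 3 or hp708 replicate 4.

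Inhba, the subunit of activin A, had the largest log2 fold change of the 38 genes, 0.47, with an SE of 0.39. It was at 6.53, 5.95, 8.00 and 7.17 CPM in hpCTL and at 7.07, 7.87, 6.86 and 27.8 CPM in hp708. A single mouse, hp708 replicate 4, carried the difference, and the other 7 mice lay between 5.95 and 8.00 CPM. Nptx2, a secreted pentraxin that gathers AMPA receptors at synapses on interneurons, was at 24.6, 17.4, 24.9 and 20.01 CPM in hpCTL and at 18.6, 15.999, 21.6 and 59.8 CPM in hp708. Pcdh8, an activity-regulated cadherin, was at 72.2, 57.0, 70.3 and 52.1 CPM and at 52.4, 62.5, 74.5 and 121 CPM. In both the same mouse was highest. Pcdh8 overlaps an annotated gene on the opposite strand in 46.5% of its exon bases, and 14 members do so in over 10%. Whether the counting used strand is not stated, so such genes can share reads.

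When hp708 replicate 4 was left out and no surrogate variables were used, a setting chosen after seeing the data, the log2 fold change fell from 0.84 to 0.07 for Inhba. For Nptx2 it went from 0.42 to -0.21, for Pcdh8 from 0.30 to 0.01 and for Ptgs2 from 0.44 to 0.18. Plk2, a kinase that weakens active synapses, Ccn1, a matrix protein, and Homer1, a scaffold of metabotropic receptors whose short activity-induced form Homer1a was not separable in gene counts, were at 0.02, 0.05 and 0.01. Of the remaining pair of members, Arl4d, a small GTPase, was at 0.15 and Coq10b, of coenzyme Q function, at -0.06.

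**Figure D2:**
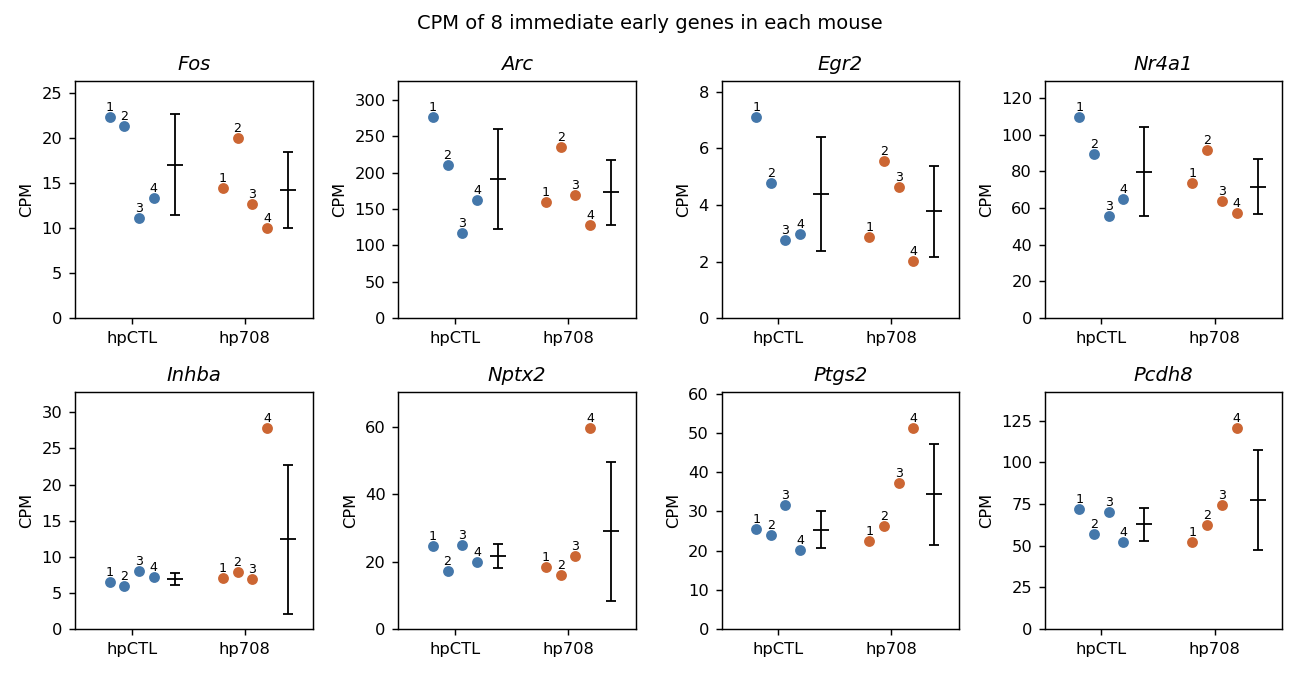
CPM (vertical axes, from 0) of 8 immediate early genes in each mouse, with the replicate number above each point (blue hpCTL, orange hp708) and the mean ± SD of 4 mice in black beside it. Fos, Arc, Egr2 and Nr4a1 are high in hpCTL replicates 1 and 2 and hp708 replicate 2, and Inhba, Nptx2, Ptgs2 and Pcdh8 are highest in hp708 replicate 4.

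Of the 9 members with a miR-708-5p seed site, 7 had a log2 fold change below 0 and 2 above, with a median of -0.08. Of the 29 members without one, 13 were below 0, with a median of 0.02. Over all tested genes, 49.5% of those with a site and 55.4% of those without were below 0. Without hp708 replicate 1, 4 of the 9 were below 0, with a median of 0.06, and 9 of the 29, with a median of 0.13, beside 50.6% of all genes with a site. Without hp708 replicate 4 these were 7 (median -0.05) and 20 (median -0.03), beside 48.7%. Without hpCTL replicate 3 they were 8 (median -0.16) and 19 (median -0.03), beside 50.0%. Over single mice dropped, the median of the 9 ran from -0.23, without hp708 replicate 2, to 0.06. These comparisons were added after seeing the data. None of the 9 had an unadjusted p below 0.05 with all 8 mice, beside 296 of the 3927 tested genes with a site. Dusp5, with higher, and Btg2, with lower values in hp708, had one without hp708 replicate 1, beside 12.2% of all genes. Sik1, with 3 sites, was at 13.9, 17.3, 12.3 and 13.3 CPM in hpCTL and at 14.1, 16.9, 14.1 and 10.2 CPM in hp708. The other gene with 3 sites, Trib1, was at 16.7, 14.6, 16.1 and 10.8 CPM in hpCTL and at 10.8, 17.9, 13.3 and 14.4 CPM in hp708. For neither gene were the groups apart.

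The immediate early genes differed more between mice of one group than most genes did. The median SD of log2 CPM within a group was 0.34 for the 38 members and 0.18 for all tested genes, and 35 of the 38 lay above the median of all genes. The most variable were Inhba at 0.70, Maff at 0.65, Egr2 at 0.64 and Nptx2 at 0.63, and the 3 below the median of all genes were Homer1 at 0.08, Midn at 0.17 and Egr3 at 0.17. The ratio of the highest to the lowest mouse had a median of 1.85 over the members and 1.47 over all genes, and reached 4.68 for Inhba. Without hp708 replicate 4 the median SD was 0.26 for the members and 0.18 for all genes, in a setting chosen after seeing the data.

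**Figure D3:**
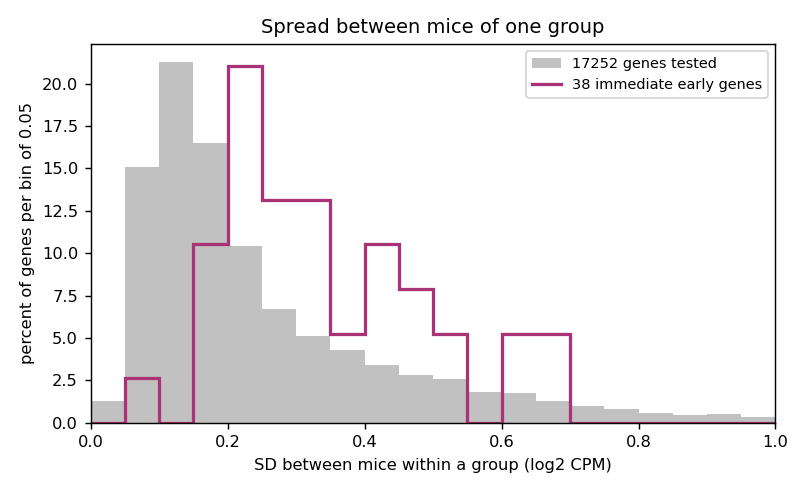
Percent of genes (vertical axis) by the SD of log2 CPM between mice of one group (horizontal axis, bins of 0.05), for all 17252 tested genes in grey and the 38 immediate early genes as a purple line. The members lie to the right of most genes, with medians of 0.34 and 0.18, and the axis leaves out the 1.91% of all genes above 1.

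The variation followed a pair of patterns that crossed the groups. Average-linkage clustering on Pearson's r of log2 CPM over the 8 mice, a description made after the values were seen, put 19 genes in a set with Fos and 18 in a set with Inhba, with Fosl2 apart. The Fos set held 10 transcription factors (Fos, Junb, Jun, Egr1, Egr2, Egr4, Npas4, Nr4a1, Nr4a3 and Nfil3), 6 regulators (Ier2, Dusp1, Btg2, Gadd45b, Sik1 and Tiparp), Arc, Homer1 and Coq10b. The Inhba set held 4 factors (Fosb, Egr3, Maff and Csrnp1), 7 regulators (Dusp5, Dusp6, Trib1, Gadd45g, Pim1, Rgs2 and Midn), 6 effectors (Inhba, Nptx2, Pcdh8, Ptgs2, Plk2 and Ccn1) and Arl4d. The median r between genes was 0.68 within the Fos set, 0.51 within the Inhba set, -0.19 between the sets and -0.003 between any 2 tested genes. Since r placed the genes, these values carry no test.

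**Figure D4:**
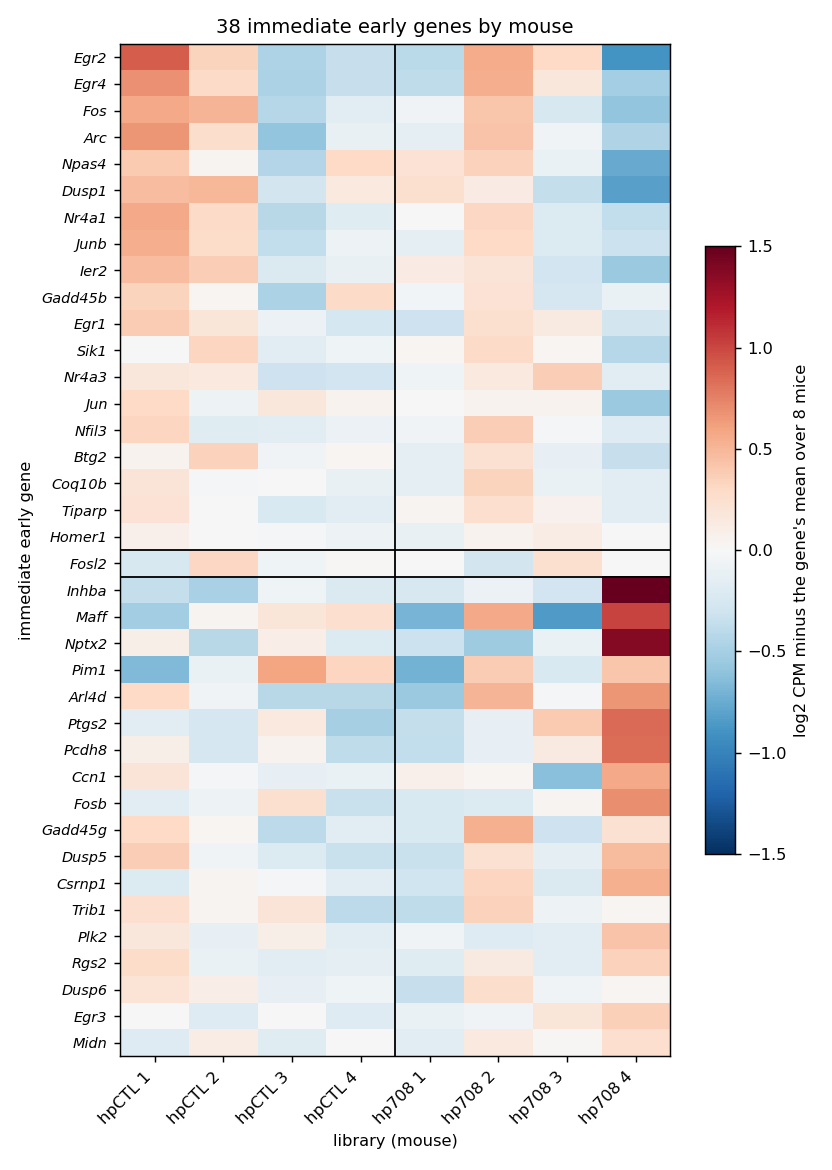
Log2 CPM of each immediate early gene minus its mean over the 8 mice (colour, red above and blue below the mean), with mice in columns (hpCTL left, hp708 right of the line) and the Fos set above, Fosl2 between and the Inhba set below the horizontal lines. The Fos set is red in hpCTL replicates 1 and 2 and hp708 replicate 2, and the Inhba set in hp708 replicate 4.

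The Fos set had a mean log2 CPM of 5.11, 4.92, 4.46 and 4.64 in hpCTL and of 4.66, 5.01, 4.69 and 4.33 in hp708. High levels thus fell in a pair of hpCTL mice and 1 hp708 mouse, and the lowest was hp708 replicate 4. For 10 members (Fos, Junb, Arc, Egr1, Egr2, Egr4, Nr4a1, Ier2, Dusp6 and Btg2) the 3 highest mice were exactly hpCTL replicates 1 and 2 and hp708 replicate 2, as for 3.43% of all tested genes. The heat shock list of 10 genes also had its highest mean log2 CPM in hpCTL replicate 1, at 6.70, and hp708 replicate 2, at 6.68, with the other mice at 6.25 to 6.37, hpCTL replicate 2 among them. The library of hpCTL replicate 1 was the highest for 11 of the 38 members and for 25.5% of all genes, and its chi-square per degree of freedom against the other libraries was 35 to 50.2, where pairs of the others had 10 to 41.1. It was also highest in the lists of CA1 (6.62), CA3 (4.74) and interneurons (5.94), and lowest in those of choroid plexus, astrocytes (7.78) and glucocorticoid targets (4.14). The mouse of hp708 replicate 2 was highest in the oligodendrocyte list (8.54, with 7.61 to 8.12 in the others) and in that of choroid plexus (5.79). The part of these lists and of that library in the Fos set was not tested.

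The Inhba set had a mean log2 CPM of 4.28, 4.18, 4.27 and 4.10 in hpCTL and of 3.98, 4.39, 4.15 and 4.87 in hp708. Here hp708 replicate 4 stood highest, and hp708 replicate 1 lowest. Of the 38 members, 14 were highest in hp708 replicate 4 and 11 were lowest in it, where over all tested genes that mouse was the highest for 15.2% and the lowest for 16.6%. For 3 members (Nptx2, Inhba and Pcdh8) it was more than 1.5 times above the next mouse, as for 0.754% of all genes. In the same mouse the astrocyte list had a mean log2 CPM of 8.01 (7.78 to 7.91 in the others), the microglia list 6.94 (6.07 to 6.86) and the list of glucocorticoid targets 4.59 (4.14 to 4.54), each the highest of the 8 mice. The list of subiculum and deep cortex, at 3.85 (3.91 to 4.50), and the CA1 list, at 6.27 (6.28 to 6.62), were the lowest. Genes within the astrocyte and glucocorticoid lists went both ways in that mouse. Gfap was highest there, at 1250 CPM (494 to 823 in the others), and Gja1 lowest, at 154 CPM (177 to 195). Plin4 was highest, at 15.9 CPM (3.96 to 8.86), and Tsc22d3 lowest, at 51.5 CPM (54.7 to 76.8). The part of these lists in the Inhba set was not tested.

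**Figure D5:**
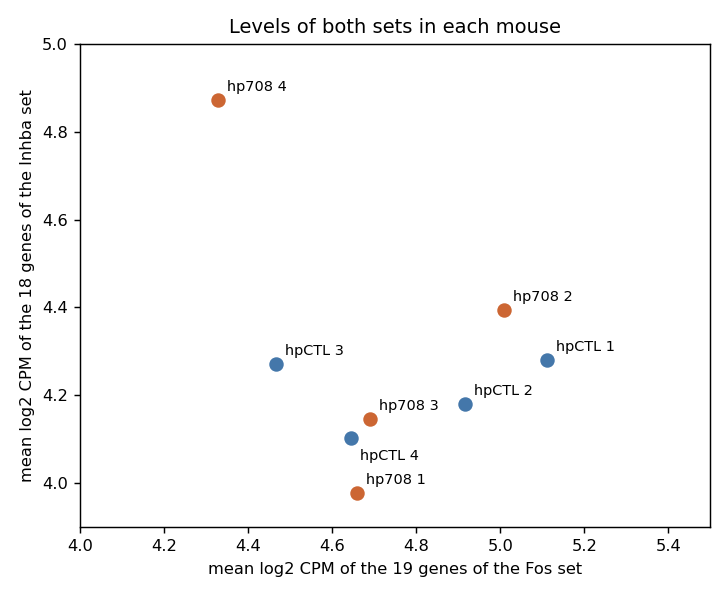
Mean log2 CPM of the 19 genes of the Fos set (horizontal axis) against that of the 18 genes of the Inhba set (vertical axis), 1 point per mouse, blue hpCTL and orange hp708. The library of hp708 replicate 4 lies apart at 4.33 and 4.87, and hpCTL and hp708 mice mix among the other 7.

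Some pairs of genes were closely correlated over the 8 mice. In all 703 pairs were compared, and 19 had an adjusted p below 0.05 (Pearson's r, exact permutation of the mice, Benjamini-Hochberg over the 703). No such count over pairs of all tested genes stands beside it, so it is not read as particular to the members. Egr2 and Egr4 had the same order in every mouse, with an r of 0.98 (adjusted permutation p 0.0174), a rho of 1 (adjusted permutation p 0.0349) and an r of 0.99 without the 2 mice farthest from the median of Egr2. Within the groups r was 0.997 in hpCTL and 0.969 in hp708. For Junb and Nr4a1, r was 0.98 (adjusted permutation p 0.0222), rho 0.98 (adjusted permutation p 0.0465), and r 0.94 without 2 mice. For Egr3 and Ptgs2, the genes with the lowest p between the groups, r was 0.96 (adjusted permutation p 0.0336), rho 0.90 (adjusted permutation p 0.154) and r 0.75 without 2 mice, with 0.768 in hpCTL and 0.998 in hp708. Fosb and Npas4 were opposed, with an r of -0.96 (adjusted permutation p 0.0336), a rho of -0.79 (adjusted permutation p 0.302) and an r of -0.80 without 2 mice. All points of a pair share a library, and hence its depth and its makeup of cells.

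Outside the 38 members, the 5 genes closest to the mean of their standardized log2 CPM over the 8 mice were Pdcd7 (r 0.996), Ctdnep1 (0.964), Ift43 (0.964), Lemd2 (0.956) and Bri3 (0.951), among genes with a mean of at least 1 CPM. These are descriptions, picked as the highest of all genes.

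The genes that pass the signal to the promoters were counted next, in the fit where 46.8% of all genes were above 0, 2.82% had an unadjusted p below 0.05 with higher values in hp708 and 4.87% with lower values. Of 21 genes of calcium and CREB signalling, 15 were above 0 and 6 below, 0 passed an FDR of 0.05, and 4 (Grin2b, Camk2a, Crtc1 and Cacna1c) had an unadjusted p below 0.05 with higher values in hp708. Grin2b, a subunit of the NMDA receptor, had the lowest p of the list, with a log2 fold change of 0.21 (SE 0.05, FDR 0.382 from edgeR). Grin2b passed an FDR of 0.05 in 1 alternative, DESeq2 with 3 surrogate variables, at 0.0229, and its FDR was at least 0.139 in the other 18. Of 22 genes of the MAP kinase and SRF pathway, 13 were above 0, 2 (Mrtfb and Elk1) had an unadjusted p below 0.05 with higher and 1 with lower values in hp708, the kinase gene Rps6ka1 at -0.32 (SE 0.09, FDR 0.511 from edgeR). Without surrogate variables 0 genes of these lists had an unadjusted p below 0.05.

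Other immediate early genes and the later wave they start were counted in the same fit, beside the same shares of all genes. Of 24 tested immediate early genes outside the members, 15 were above 0 and 9 below, and 4 (Klf6, Arid5a, Bhlhe40 and Jund) had an unadjusted p below 0.05, all with lower values in hp708. Klf6, a zinc finger factor, was at -0.13 (SE 0.05, FDR 0.613 from edgeR). Of 21 late response genes 12 were above 0, 0 passed an FDR of 0.05, and 3 (Kcna1, Nptx1 and Nrn1) had an unadjusted p below 0.05 with higher values. Kcna1, a potassium channel, was at 20.7, 38.7, 48.1 and 43.4 CPM in hpCTL and at 45.2, 31.7, 58.0 and 62.0 CPM in hp708, with a log2 fold change of 0.34 (SE 0.06, FDR 0.294 from edgeR). The likelihood ratio test and DESeq2 with 3 surrogate variables gave Kcna1 an FDR of 0.00822 and 0.0261, and without surrogate variables edgeR gave 0.999.

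In hp708 replicate 4, the mouse in which the Inhba set was highest, 10 of the 24 other immediate early genes and 10 of the 21 late response genes were also at their highest, beside 15.2% of all genes. At their lowest there were 6 of the 24 (Jund, Klf2, Klf4, Nr4a2, Per1 and Errfi1) and 4 of the 21 (Pcsk1, Crem, Tac1 and Rasgrf2), beside 16.6% of all genes. Singled out after their values were seen, the neurotrophin gene Bdnf was at 73.0 CPM there and at 28.8 to 45.9 CPM in the other 7 mice. Sorcs3 was at 81.6 CPM against 36.9 to 51.6 CPM and Npy, a neuropeptide, at 63.5 CPM against 28.0 to 39.4 CPM. Between the groups their log2 fold changes were 0.31, 0.16 and 0.18, and none had an unadjusted p below 0.05.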

How the data were processed

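PolyA libraries (TruSeq mRNA) of 8 hippocampal samples were analysed. The authors mapped reads to GRCm39 with STAR 2.7.8a, counted them per gene with featureCounts 1.6.4 and deposited raw counts. Strand and multi-mapping settings are not given in the sources used here, so genes that overlap can share reads. Every pair of libraries differed beyond sampling noise (chi-square of at least 10.0 per degree of freedom). Genes were named from a later GENCODE release of the same build, which matched 39637 of 40659 identifiers.

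From the deposited counts, filterByExpr kept 17252 genes. edgeR 4.0.16 (R 4.3.3) fitted the quasi-likelihood test as in edgeR 3, with library sizes scaled by TMM, svaseq (sva 3.50.0) giving the 3 surrogate variables, and p-values adjusted after Benjamini-Hochberg over all tested genes. A prior count of 2 was added for log2 CPM. Standard errors came from the fold change and its test statistic. Permutation tests were exact and two-sided. Alternatives changed the surrogate variables, test, tool (DESeq2 1.42.0), size factors, filter, replicate block and libraries. Each library is 1 mouse by its label, so p-values without surrogate variables measure the spread between mice. With them, p-values measure the spread left after 3 surrogate variables fitted to the same 8 libraries. The second of these had an r of 0.69 with the Inhba set, and the third an r of -0.65 with the Fos set. The SE of Ptgs2 was 0.09 with surrogate variables and 0.24 without.

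Named are all members, the gene of lowest p in each pathway list and the 5 genes most like the members, and other names were added after their values were seen. A pathway list and some promoter sequences are not reported here. The members and lists were chosen with earlier results of these data known.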

Additional observations from a re-analysis of the deposited data

Results flagged for a closer look

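In 11 of 112 groups of 4 mice examined, one mouse stood far from the other 3 of its group, where chance gives about 5.6. Of the members, Inhba at 27.8 CPM (6.86 to 7.87 in the other hp708 mice), Nptx2 at 59.8 CPM (15.999 to 21.6) and Jun at 75.2 CPM (112 to 115) were far off in hp708 replicate 4, the first pair high and Jun low. Coq10b was high in hp708 replicate 2 at 23.7 CPM (16.8 to 17.5). In hpCTL replicate 1, Nfil3 was high at 11.7 CPM (8.26 to 8.82) and Rgs2 at 49.4 CPM (36.3 to 38.1), while Klf6 was low at 35.2 CPM (40.0 to 40.6).

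Among the marker lists, the mean log2 CPM of the CA1 list was high in hp708 replicate 1, the mouse with conflicting labels, at 6.56 (6.27 to 6.30), which lies within the hpCTL range of 6.39 to 6.62. The list of subiculum and deep cortex was low in hpCTL replicate 1 at 4.20 (4.46 to 4.50), the interneuron list was low in hp708 replicate 3 at 5.62 (5.67 to 5.68), and the heat shock list was high in hp708 replicate 2 at 6.68 (6.25 to 6.29).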

How the results depend on the processing

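No member passed an FDR of 0.05 in any of the 19 alternatives, where the lowest FDR of a member lay between 0.0677 and 1. The number of members with an unadjusted p below 0.05, 3 as reported, was 0 without surrogate variables in edgeR (1.81% of all genes), in DESeq2 (1.84%) and without hp708 replicate 4 (1.51%), 1 with the replicate block and no surrogate variables (1.58%), 7 without a filter (5.87%) and 6 where each library had to hold at least 10 counts (5.72%). With single libraries left out it lay between 2 and 11 (2.98% to 12.2%). The 15 pathway genes with an unadjusted p below 0.05 became 9 with the likelihood ratio test, 0 without surrogate variables in edgeR, 1 in DESeq2 without them, 0 with the replicate block, 7 without hp708 replicate 1 and 0 without hp708 replicate 4 (both with no surrogate variables), and 5 to 34 with single libraries left out. Members above 0 numbered 11 to 25 with single libraries left out, 11 of them without hpCTL replicate 3 or hp708 replicate 4, and members whose groups did not overlap 0 to 1. That one was Btg2 without hp708 replicate 2, where 6.17% of all genes did not overlap. The cause of these changes was not tested.

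Signs turned for these genes, of which Rps6ka1 is no member. Maff went to 0.20 without surrogate variables, 0.21 in DESeq2 without them, 0.26 under the minimum of 10 counts and 0.066 with the replicate block. Fosl2 went to 0.0035 in DESeq2 and to 0.0037 with its size factors in edgeR. Without a filter the values were Fosl2 at 0.046, Gadd45g at -0.031 and Nfil3 at -0.015, and under the minimum of 10 counts Trib1 at 0.011, Gadd45b at 0.012 and Coq10b at 0.022. Without hp708 replicate 1 and surrogate variables they were Egr4 at 0.018, Dusp6 at 0.055, Trib1 at 0.066, Maff at 0.42, Pim1 at 0.11, Coq10b at 0.025 and Rps6ka1 at 0.025. Without hp708 replicate 4 and surrogate variables they were Fosb at -0.058, Egr4 at 0.045, Npas4 at 0.061, Dusp5 at -0.030, Nptx2 at -0.21, Plk2 at -0.13, Sik1 at 0.088, Ccn1 at -0.13, Rgs2 at -0.033 and Coq10b at 0.031.

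With single libraries left out, log2 fold changes that turned sign ranged over -0.22 to 0.028 (Gadd45b), -0.15 to 0.14 (Fosl2), -0.072 to 0.20 (Plk2), -0.23 to 0.058 (Sik1), -0.018 to 0.17 (Nfil3), -0.051 to 0.41 (Dusp5), -0.025 to 0.068 (Homer1), -0.081 to 0.35 (Gadd45g), -0.028 to 0.69 (Arl4d), -0.027 to 0.28 (Rgs2), -0.13 to 0.34 (Csrnp1), -0.072 to 0.18 (Midn), -0.36 to 0.059 (Egr4), -0.21 to 0.095 (Dusp6), -0.22 to 0.11 (Trib1), -0.64 to 0.41 (Maff), -0.57 to 0.094 (Pim1), -0.14 to 0.056 (Coq10b), -0.46 to 0.025 (Rps6ka1), -0.077 to 0.29 (Fosb), -0.22 to 0.11 (Npas4), -0.13 to 0.61 (Nptx2) and -0.12 to 0.34 (Ccn1). The other 16 members kept their sign with single libraries left out. Ptgs2 ranged over 0.13 to 0.61, Egr3 0.12 to 0.31, Dusp1 -0.59 to -0.20, Inhba 0.032 to 0.99 and Pcdh8 0.0056 to 0.54. Arc ranged over -0.26 to -0.013, Egr2 -0.56 to -0.018 and Ier2 -0.37 to -0.11. All of these were nearest to 0 without hp708 replicate 4. The rest were nearest to 0 without another mouse. Fos ranged over -0.44 to -0.096, Junb -0.29 to -0.11, Jun -0.29 to -0.035 and Egr1 -0.28 to -0.018. Nr4a1 ranged over -0.22 to -0.028, Nr4a3 0.013 to 0.24, Btg2 -0.36 to -0.14 and Tiparp 0.034 to 0.17.

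The labels number the mice 1 to 4 in both groups, but mice of the same number did not deviate together (r -0.041 to 0.018 over all tested genes), so the block result is given only here. Maff had as few as 16 counts in a library, and the part of depth in its spread was not tested.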
